A study of Mus musculus with 6 samples.

Results

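The genes described are 10 amino acid transporter genes, measured in mouse CD8 T cells, which are the cytotoxic branch of the T lymphocytes. They were chosen by name, with earlier results of these data known, so their counts beside all genes are a description. All 10 were found by their Ensembl gene rows. Adding rows for single transcripts to their gene left 22288 entries, which are counted as genes here. RNA had been sequenced from naive CD8 T cells purified from spleen cells of wild-type C57BL/6 mice, an inbred laboratory strain. The cells had been activated for 48 h by antibodies to CD3 and to CD28. There were 3 libraries from cells activated with the solvent DMSO and 3 from cells activated with 10 nM ponatinib, a drug against BCR-ABL that inhibits many kinases. All 6 cultures held recombinant IL-2, fetal bovine serum, L-glutamine and 2-mercaptoethanol. Whether replicates came from separate mice or cultures is not in the labels, nor is the age of the mice; p-values therefore cover the spread among these libraries, which may be technical.

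A T cell that leaves the resting state must import amino acids to build protein, and the transporters of its plasma membrane are part of that programme. Slc7a5, Slc7a6 and Slc7a11 encode light chains that carry the substrate and that reach the surface joined to a heavy chain, CD98, encoded by Slc3a2. The pair of Slc7a5 and Slc3a2 takes up leucine and other large neutral amino acids in exchange for intracellular ones such as glutamine, and its loss is known to block the growth of activated T cells. Slc7a6 with the heavy chain exchanges cationic for neutral amino acids, and Slc7a11 exchanges cystine for glutamate. Slc43a2 moves large neutral amino acids without a heavy chain. Slc7a1 imports arginine and lysine. Slc1a5 and Slc1a4 exchange small neutral amino acids, among them serine, and of these genes Slc1a5 is the glutamine exchanger. Slc38a1 and Slc38a2 bring in neutral amino acids together with sodium. ATF4, the transcription factor of the amino acid response, is known to induce several of these genes.

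With ponatinib, transcripts of Slc7a5, its heavy chain Slc3a2, the arginine transporter Slc7a1 and the glutamine transporter Slc1a5 fell. Mean levels were 1.90-fold lower for Slc7a5, 1.73-fold for Slc3a2, 1.39-fold for Slc7a1 and 1.25-fold for Slc1a5. Slc1a4, a gene of lower level, fell 5.01-fold. The sodium-coupled transporters Slc38a1 and Slc38a2, the light chain Slc7a6 and Slc43a2 did not pass the test. These values have rows for single transcripts added to their gene. For Slc7a6 and Slc43a2 the result depended on that step, as described below. Slc7a11 was under 1 TPM in 5 of the 6 libraries and did not pass the test either.

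The deposited values are TPM, a measure of transcript abundance relative to transcript length and to a library total of 1000000. Genes averaging 10 TPM or more across all 6 libraries were tested with limma on log2(TPM + 1), and a gene was called at a Benjamini-Hochberg adjusted p under 0.05 over all 6816 kept genes. Of the 10 transporters 8 were kept; 4 were lower, 0 higher and 4 not called. Their median log2 fold change was -0.24. Among all kept genes 9.13% were called lower and 27.3% higher, with a median of 0.10. The 4 called transporters were the 4 kept ones whose groups did not overlap, all lower; among all kept genes 13.8% were lower and 37.6% higher without overlap. In bulk RNA, fewer cells of a type and less RNA per cell cannot be told apart. Slc1a4, at a mean under 10 TPM, was tested with a minimum of 1 TPM, over 10244 genes, of which 8.71% were called lower and 14.6% were lower without overlap. Slc7a11 was tested with no filter, over 15420 genes, of which 5.51% were called lower and 12.1% were lower without overlap.

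Sequences just before the start sites are shown for the members whose promoter window held the letters TGATGNAA, the composite site of C/EBP and ATF factors. RefSeq windows of GRCm38.p6, from 250 bases before to 50 after a start, matched 7 of the 10 genes; Slc7a5, Slc1a5 and Slc38a1 had none. On either strand, TGATGNAA was found in 2 of the 7, Slc7a11 and Slc1a4, and in 3.97% of 32851 windows of the same length. Members were counted as genes, with 2 windows each for Slc7a1, Slc7a6 and Slc43a2. The shares, here and for the motifs below, were counted over single windows, so the units differ. Slc7a11 held 2 copies, at -66 to -59 and -47 to -40 relative to the start, as did 0.07% of windows with 2 or more. Slc1a4 held 1 copy, across the start at -4 to 4. The stretches from 100 bases before to 20 after the start lie at chr3:50443594-50443713 and chr11:20332694-20332813, minus strand, and are written 5′ to 3′ with the matches in capitals. A match is a description of letters, not a measured site.

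Slc7a11: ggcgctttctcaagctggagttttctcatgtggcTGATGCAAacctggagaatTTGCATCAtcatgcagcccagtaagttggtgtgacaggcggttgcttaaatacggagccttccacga

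Slc1a4: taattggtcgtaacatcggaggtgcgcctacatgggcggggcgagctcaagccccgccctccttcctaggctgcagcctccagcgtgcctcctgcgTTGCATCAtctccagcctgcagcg

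The called Slc3a2 and Slc7a1 held no TGATGNAA in the window, and neither did Slc7a6, Slc38a2 and Slc43a2. The E-box CACGTG, which binds MYC and its partner MAX, was in none of the 7 and in 7.15% of all windows. TGACNNNGC, the core of the antioxidant response element that NRF2 binds, was in 3 of 7, Slc7a1, Slc7a6 and Slc38a2, and in 12.4% of all windows. No window of a member held more than 1 of these 3 motifs, so matches to different motifs did not overlap.

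Slc7a5 (ENSMUSG00000040010; GRCm38, chromosome 8, at 121881150 to 121907694, minus strand) encodes the light chain LAT1. It stood at 297, 287 and 405 TPM in DMSO replicates 1, 2 and 3 and at 155, 180 and 186 TPM in ponatinib replicates 1, 2 and 3. Every ponatinib library lay below every DMSO library, and DMSO replicate 3 was the highest. The means were 330 ± 65.1 and 174 ± 16.6 TPM (SD, n = 3 per group), with a log2 fold change of -0.91 (SE 0.13, limma adjusted p = 0.00209). Of the 6816 kept genes, 108 had a lower log2 fold change than Slc7a5.

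Slc3a2 (ENSMUSG00000010095, minus strand of chromosome 19, at 8706882 to 8723369) encodes the CD98 heavy chain. Its levels were 272, 245 and 360 TPM with DMSO and 157, 174 and 177 TPM with ponatinib. The groups did not overlap, and DMSO replicate 3 was again the highest. The log2 fold change was -0.77 (SE 0.13, limma adjusted p = 0.00392), and the means were 292 ± 60.4 and 169 ± 11.1 TPM.

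The proportion of light to heavy chain transcripts moved by less than either gene. The log2 ratio of Slc7a5 to Slc3a2 was 0.13, 0.23 and 0.17 with DMSO and -0.02, 0.05 and 0.07 with ponatinib. The ratio was lower by 0.14 on the log2 scale with ponatinib (-0.14; means 0.18 ± 0.05 and 0.03 ± 0.05, SD, n = 3), without overlap between the groups. An exact two-sided permutation test gave p = 0.1, the smallest that 3 against 3 libraries allow.

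Slc7a1 (ENSMUSG00000041313, minus strand of chromosome 5, at 148327410 to 148399904), the arginine and lysine importer, was at 101, 98.7 and 101 TPM with DMSO and 70.0, 74.0 and 71.3 TPM with ponatinib. It had the lowest relative spread of the 10 among the DMSO libraries, with a mean of 100.1 TPM and an SD of 1.28 TPM. The log2 fold change was -0.47 (SE 0.05, limma adjusted p = 6.17e-04), and DMSO replicate 3 hardly differed here from the other DMSO libraries.

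**Figure D1:**
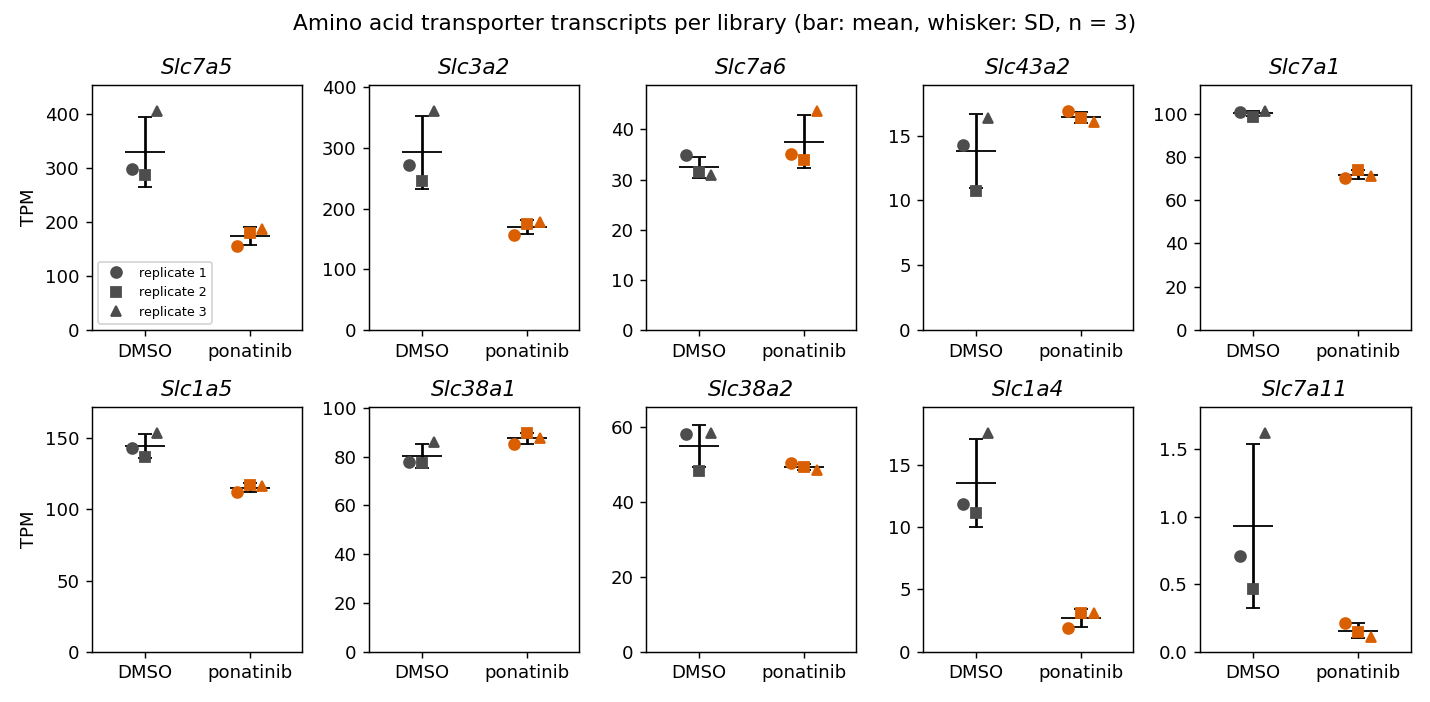
TPM of each of the 10 transporters in every library, on a linear axis from 0 that differs between panels; grey points are DMSO, orange points ponatinib, the marker shape gives the replicate, horizontal bars are means and whiskers SD (n = 3). All ponatinib points lie below all DMSO points for Slc7a5, Slc3a2, Slc7a1, Slc1a5, Slc1a4 and Slc7a11, and the groups overlap for the other 4. Values are gene rows with the transcript rows of the same gene added.

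Slc1a5 (ENSMUSG00000001918, plus strand of chromosome 7, at 16781340 to 16798274), the glutamine exchanger ASCT2, was at 143, 137 and 154 TPM with DMSO. With ponatinib it was at 112, 117 and 116 TPM, so that all 3 libraries were lower than each DMSO library. The log2 fold change was -0.32 (SE 0.06, limma adjusted p = 0.00440).

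Slc1a4 (ENSMUSG00000020142, minus strand of chromosome 11, at 20302180 to 20332713) encodes the related exchanger ASCT1, which carries alanine, serine and cysteine. It stood at 11.9, 11.1 and 17.5 TPM with DMSO and at 1.86, 3.12 and 3.11 TPM with ponatinib. In the fit with a minimum mean of 1 TPM its log2 fold change was -1.97 (SE 0.20, limma adjusted p = 8.55e-04). Slc1a4 and Slc1a5 thus both fell, from mean levels of 13.5 ± 3.50 and 145 ± 8.40 TPM to 2.70 ± 0.724 and 115 ± 2.91 TPM.

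Slc7a11 (ENSMUSG00000027737, minus strand of chromosome 3, at 49892526 to 50443614), the cystine transporter xCT, was at 0.710, 0.464 and 1.62 TPM with DMSO and 0.216, 0.144 and 0.110 TPM with ponatinib. The groups did not overlap, but all values were low and DMSO replicate 3 stood well above the other libraries. The mean was 5.96-fold lower with ponatinib, and 3.75-fold lower without DMSO replicate 3. Without a filter its log2 fold change was -0.70 (SE 0.21, limma adjusted p = 0.0692). A pseudocount of 1 TPM compresses differences at this level; with 0.1 TPM the log2 fold change was -1.87 (adjusted p = 0.0256). The call was also made with quantile normalization (0.0391) and without DMSO replicate 2 (0.0426) or DMSO replicate 3 (log2 fold change -0.45, adjusted p = 0.0173). In 9 of 13 alternatives Slc7a11 was not called. Among these were the fits without DMSO replicate 1 (0.123) and without ponatinib replicate 1, 2 or 3 (0.137, 0.169 and 0.176).

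The sodium-coupled transporters had the smallest fold changes of the 8 kept members, and neither passed the test with all libraries. Slc38a1 (ENSMUSG00000023169, chromosome 15, at 96571418 to 96642913) was at 77.6, 77.3 and 86.1 TPM with DMSO and 85.3, 89.7 and 87.7 TPM with ponatinib. DMSO replicate 3 lay within the ponatinib range. Its log2 fold change of 0.12 (95% interval -0.01 to 0.26, limma adjusted p = 0.138) was close to the median of all kept genes, and without DMSO replicate 3 it passed the test (0.17, adjusted p = 0.0207). Slc38a2 (ENSMUSG00000022462, chromosome 15, at 96687392 to 96699730), which is known to rise when amino acids are scarce, was at 58.0, 48.3 and 58.3 TPM with DMSO and 50.2, 49.1 and 48.5 TPM with ponatinib. DMSO replicate 2 lay below all ponatinib libraries. Its log2 fold change was -0.15 (95% interval -0.33 to 0.04, limma adjusted p = 0.19), and it was called lower without DMSO replicate 2 (-0.23, adjusted p = 0.0299) and with medians of ratios as scaling (-0.25, adjusted p = 0.0344).

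**Figure D2:**
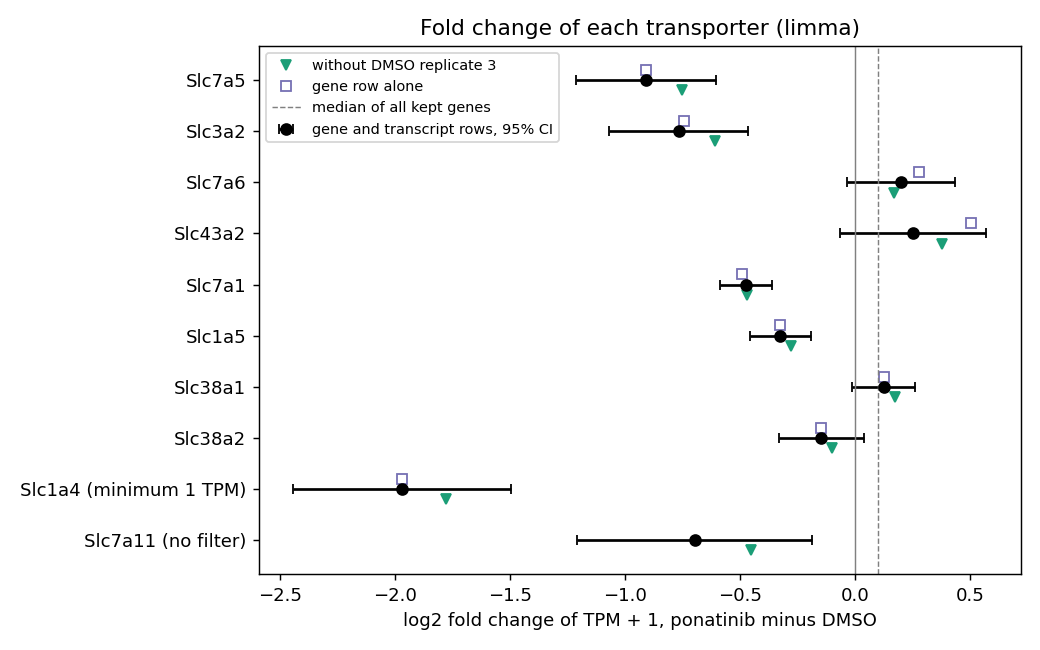
Log2 fold change of TPM + 1, ponatinib minus DMSO, for each transporter: black points with 95% intervals are the limma values, green triangles leave out DMSO replicate 3, and open squares use the gene row alone with a minimum mean of 1 TPM. The intervals of Slc7a6, Slc43a2, Slc38a1 and Slc38a2 include 0, and the dashed line marks the median of all kept genes at 0.10.

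For Slc7a6 and Slc43a2 the result depended on which rows of the deposited table were read. Besides gene rows the table holds rows for single transcripts, which were added to their gene. These rows held 53.4% of Slc7a6 TPM with DMSO and 50.2% with ponatinib, and 71.1% and 64.2% of Slc43a2 TPM. For Slc3a2 and Slc7a1 they held at most 3.81% in any library, and the other 6 transporters had no transcript row.

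Slc7a6 (ENSMUSG00000031904, plus strand of chromosome 8, at 106168857 to 106198706), a light chain for cationic and neutral amino acids, summed to 34.8, 31.5 and 30.9 TPM with DMSO and 35.1, 34.0 and 43.6 TPM with ponatinib. The sums overlapped between the groups, and the log2 fold change of 0.20 (95% interval -0.04 to 0.44, limma adjusted p = 0.162) did not pass the test. The gene row alone stood at 15.1, 15.1 and 15.0 TPM with DMSO and 18.5, 17.9 and 19.1 TPM with ponatinib. It was higher in every ponatinib library than in any DMSO library. In the fit of gene rows alone it was called (0.28, limma adjusted p = 0.0111), where 29.9% of 6466 genes were called higher and 39.4% were higher without overlap.

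The transcript rows of Slc7a6 did not separate the groups. Slc7a6-203, annotated as a target of nonsense-mediated decay, the route that removes messages with an early stop codon, was at 7.99 ± 1.44 TPM with DMSO and 8.11 ± 1.31 TPM with ponatinib. The coding transcript Slc7a6-202 was at 7.64 ± 2.04 and 9.17 ± 2.30 TPM. Slc7a6-204 was listed at 0 in 4 of 6 libraries and at 4.45 TPM in ponatinib replicate 3, the library with the highest sum.

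Slc43a2 (ENSMUSG00000038178, plus strand of chromosome 11, at 75531694 to 75577575), the carrier LAT4, summed to 14.3, 10.8 and 16.4 TPM with DMSO and 16.9, 16.3 and 16.0 TPM with ponatinib. DMSO replicate 3 lay within the ponatinib range; the log2 fold change was 0.25 (95% interval -0.06 to 0.57, limma adjusted p = 0.186), and 0.38 without that library (adjusted p = 0.0220). The gene row alone was at 3.20, 3.97 and 4.47 TPM with DMSO and 6.28, 5.81 and 5.57 TPM with ponatinib, without overlap. In a fit of gene rows with a minimum of 1 TPM, chosen after seeing the data, it was called (0.50, limma adjusted p = 0.0148). There 23.9% of 10039 genes were called higher and 34.5% were higher without overlap. That call was lost without ponatinib replicate 1 or 2 (0.0570 and 0.0512), and the Slc7a6 call in the same fit (0.0132) was lost without ponatinib replicate 3 (0.0604).

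**Figure D3:**
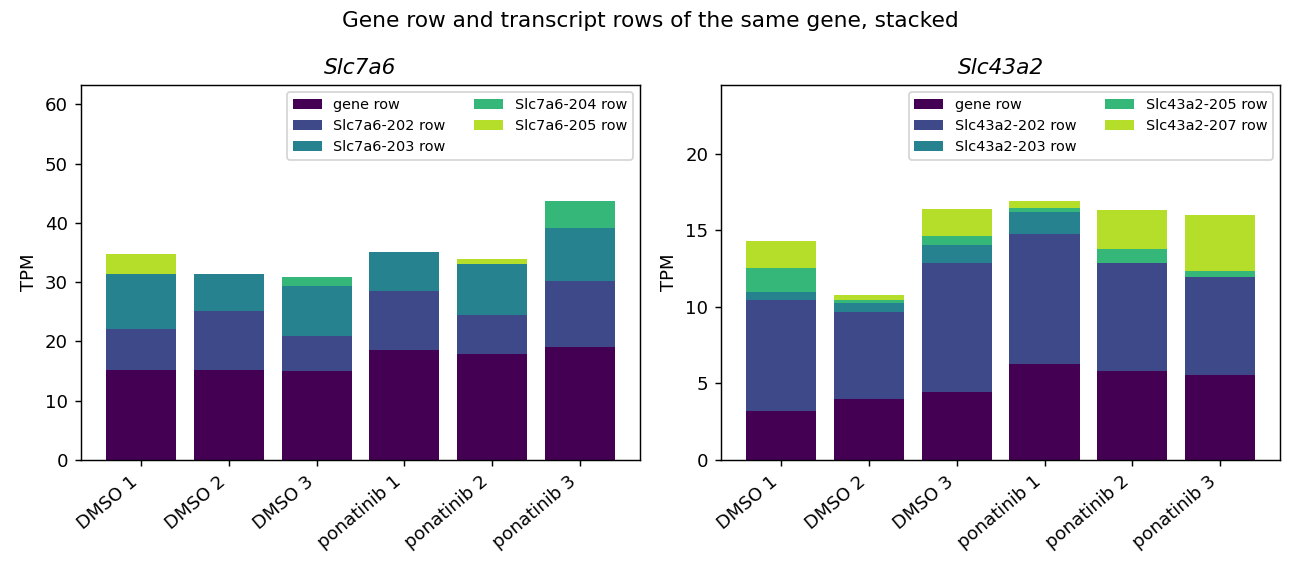
TPM of the gene row and of each transcript row of Slc7a6 and Slc43a2, stacked per library from 0. The gene row at the bottom is taller in all 3 ponatinib libraries for both genes, while the stacked sums overlap between the groups.

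Within the transporters, levels fell into the same order in both groups except at neighbouring ranks. With DMSO the order of mean TPM was Slc7a5, Slc3a2, Slc1a5, Slc7a1, Slc38a1, Slc38a2, Slc7a6, Slc43a2, Slc1a4 and Slc7a11. Libraries of Slc7a5 and Slc3a2 overlapped, as did those of Slc43a2 and Slc1a4, and the other neighbours did not; with ponatinib the pair of Slc7a5 and Slc3a2 was the one that overlapped. With ponatinib Slc38a1, at 87.6 ± 2.21 TPM, stood above Slc7a1, at 71.8 ± 2.05 TPM, whereas with DMSO it stood below, at 80.3 ± 4.96 against 100.1 ± 1.28 TPM. The 10 genes together held 1063 ± 149 TPM with DMSO and 724 ± 35.8 TPM with ponatinib, and Slc7a5 and Slc3a2 made up 58.2% ± 3.41 and 47.3% ± 1.53 of that sum (SD, n = 3).

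DMSO replicate 3 stood apart from the other DMSO libraries, and it held the highest DMSO value in 9 of the 10 transporters, Slc7a6 being the exception. On the second principal component, with 16.9% of the variance, it lay at -14.1 against 6.27 and 9.89, and mitochondrially encoded genes held 4.78% of its TPM against 9.76% and 10.7%. Without it 4 transporters were still called lower. Their log2 fold changes were -0.75 for Slc7a5, -0.61 for Slc3a2, -0.47 for Slc7a1 and -0.28 for Slc1a5. Called higher were 2, Slc38a1 and Slc43a2. Among all genes, 668 were lower and 2659 higher in that fit, in place of 622 and 1859 with all libraries. The latter were 9.13% and 27.3% of the kept genes. Higher calls thus grew over all genes as well, and the 2 are not read as particular to the transporters. All 6 CD8 T cell markers were present in every library, with a sum of 1922 to 2038 TPM with DMSO and 2239 to 2527 TPM with ponatinib. Summed markers of CD4 T cells were 5.49 to 14.9 TPM with DMSO and 18.4 to 22.9 TPM with ponatinib, and those of myeloid cells 1.67 to 2.60 and 4.35 to 6.95 TPM. The CD4 list was not uniform. Cd4, Cd40lg and Foxp3 were higher in every ponatinib library than in any DMSO library. Foxp3 rose most, from at most 1.42 TPM with DMSO to 7.33 to 12.8 TPM with ponatinib. Zbtb7b instead was highest in DMSO replicates 1 and 3, at 4.47 and 9.53 TPM, and reached at most 2.88 TPM with ponatinib. NK markers summed to 0.0191 to 0.156 TPM with DMSO and 0.492 to 0.994 TPM with ponatinib, and erythroid and platelet markers to 0.797 to 1.89 and 4.12 to 8.37 TPM. The B cell list summed to 222 to 267 TPM with DMSO and 271 to 291 TPM with ponatinib, nearly all of it Ighm, while Ms4a1 and Pax5 stayed at or below 0.851 TPM. No marker of any list was at 0 in all libraries; S100a8, S100a9 and Ncr1 were at 0 in each DMSO library. The part of these cells in the transporter values was not tested.

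Other amino acid transporters of the plasma membrane were mostly silent. Of 25 in the list, 8 were listed at 0 in all libraries, 8 reached a mean of 1 TPM and 2 reached 10 TPM. Those 2, the taurine transporter Slc6a6 (log2 fold change -0.10, limma adjusted p = 0.457) and the aromatic amino acid transporter Slc16a10 (-0.05, 0.838), were not called. With the minimum of 1 TPM, 2 of 8 were lower and 1 higher, against 8.71% and 21.8% of all genes; these 3, like the pair above, are named after their values were seen. Slc7a3, a second arginine and lysine transporter, was at 10.9, 10.6 and 24.8 TPM with DMSO and 1.15, 1.77 and 1.57 TPM with ponatinib. Its log2 fold change was -2.62 (SE 0.30, limma adjusted p = 0.00108). The glycine transporter Slc6a9 was at 13.8, 10.4 and 15.6 TPM with DMSO and 0.796, 0.989 and 1.21 TPM with ponatinib (-2.83, SE 0.16, adjusted p = 9.61e-05). Both fell more than any of the 10 transporters kept at 1 TPM on this scale. Slc6a19, a neutral amino acid transporter known from gut and kidney, was at 0.615, 0.409 and 0.731 TPM with DMSO and rose to 4.92, 3.35 and 2.84 TPM with ponatinib (1.55, SE 0.18, adjusted p = 0.00127).

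Of carriers of lysosomes and mitochondria, 7 were kept at 10 TPM, of which 1 was higher and 0 lower, against 27.3% and 9.13% of all kept genes. The median of their log2 fold changes was 0.08. The mitochondrial serine carrier Sfxn1 rose from 77.0 ± 1.52 to 86.9 ± 3.78 TPM (0.17, adjusted p = 0.0380), a call lost with medians of ratios, with quantile normalization and without any of 4 single libraries, DMSO replicates 1 and 2 and ponatinib replicates 2 and 3. At 1 TPM, 1 of 16 was lower and 1 higher, against 8.71% and 21.8% of all genes; the higher one was again Sfxn1. The lower one was Slc7a14, named after its value was seen, at 1.63 ± 0.641 and 0.511 ± 0.102 TPM (limma adjusted p = 0.0220); that call was lost without any ponatinib library.

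Among 17 genes known to control these transporters or to mark the amino acid response, 12 were kept, 7 were lower and 0 higher. The median log2 fold change of those kept was -0.61. Of all kept genes 9.13% were lower and 27.3% higher, with a median of 0.10. Atf4, the transcription factor itself, was at 343, 317 and 486 TPM with DMSO and at 146, 173 and 178 TPM with ponatinib. The groups of Atf4 did not overlap, and its log2 fold change was -1.18 (SE 0.15, limma adjusted p = 0.00145). Cebpg, which encodes a partner of ATF4, fell from 30.7 ± 6.58 to 17.2 ± 2.04 TPM. Trib3, an ATF4 target, fell from 51.5 ± 15.1 to 5.52 ± 0.296 TPM, and asparagine synthetase, Asns, from 114 ± 49.8 to 18.4 ± 3.94 TPM. Myc was at 264, 251 and 366 TPM with DMSO and at 196, 208 and 219 TPM with ponatinib, without overlap. Its log2 fold change was -0.48 (SE 0.13, limma adjusted p = 0.0247), a call lost with no filter and without any 1 of the ponatinib libraries (largest adjusted p = 0.0855). Its partner gene Max, at 113 ± 8.86 and 104 ± 2.22 TPM, and Nfe2l2, which encodes NRF2, at 23.8 ± 3.40 and 23.2 ± 1.82 TPM, were not called. Myc, Max and Nfe2l2 were named after their values were seen. Many of these regulators were already known to be lower from an earlier look at these libraries, so their counts are no independent support.

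**Figure D4:**
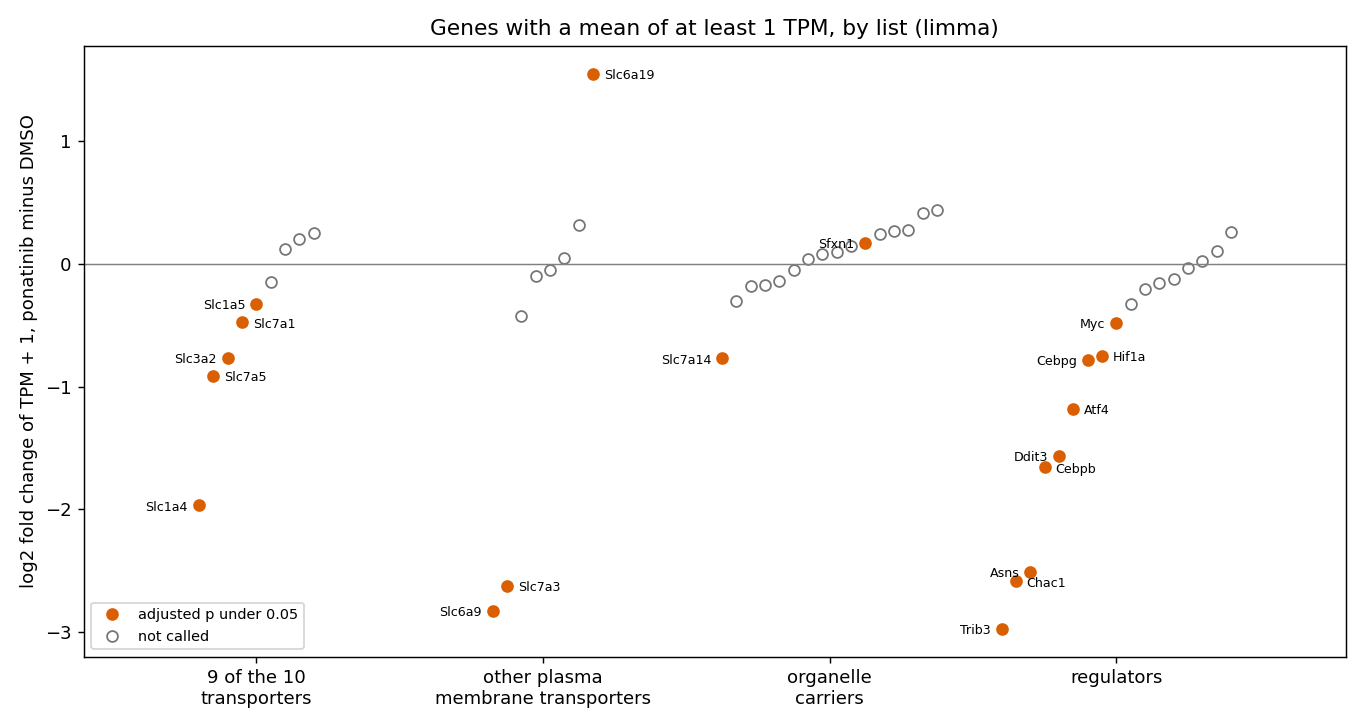
Log2 fold change of TPM + 1, ponatinib minus DMSO, for each gene averaging 1 TPM or more in 4 lists; filled points have an adjusted p under 0.05 and open points do not. Filled points lie below 0 for 5 of 9 transporters, 2 of 8 other plasma membrane transporters, 1 of 16 organelle carriers and 9 of 17 regulators, against 8.71% of all genes in that fit; Slc6a19 and Sfxn1 are the filled points above 0.

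The kept genes whose pattern over the 6 libraries was most like that of Slc7a5 were Higd1a, Phf10, Fam162a, Arl14ep and P2ry10. Likeness was the root mean square distance between centred log2(TPM + 1) values, which was 0.03 for Higd1a, a gene of the inner mitochondrial membrane known from hypoxia, and 0.08 for P2ry10. Higd1a was at 149, 147 and 205 TPM with DMSO and 79.8, 86.1 and 93.0 TPM with ponatinib. For Slc7a11 the nearest were Daxx, Iah1, Lgals9, Gng12 and Nabp1, at distances of 0.08 to 0.09. On this scale the pseudocount compresses Slc7a11 and hardly affects these more abundant genes, so this likeness depends on the pseudocount; their log2 fold changes were -0.81 to -0.65. Lgals9, which encodes galectin-9, was at 92.4, 87.3 and 170 TPM with DMSO and 70.6, 64.5 and 67.6 TPM with ponatinib, high in DMSO replicate 3 as Slc7a11 was.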

How the data were processed

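RNA was measured in 3 DMSO and 3 ponatinib libraries, grouped by the sample titles. The authors deposited 1 table in which every column sums to 1000000 and low values scale with transcript length, so the values were read as TPM although the table is called normalized counts; the fixed test was kept, with its minimum of 10 on the TPM scale. Tools named in the submitters' processing notes, without roles, are Salmon 1.5.1, fastp 0.19.5 and DESeq2 1.22.1, with the build GRCm38; the summing to genes is not described there. TPM keep no depth, so reads per library are unknown and no counting interval is given; precision rests on 3 libraries per group.

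The table held 22095 gene rows and 20977 transcript rows, of which 22011 and 20793 were matched, without version, to GENCODE mouse release 21; 11 rows carried its version, so the authors' annotation was another one. Transcript rows were added to their gene, and 20772 lay outside the annotation's basic set. Transcript rows without a match stayed as entries of their own and were counted among the genes. No column lay outside the series. Values were log2(TPM + 1), tested with limma 3.58.1 (eBayes with trend, two-sided) in R 4.3.3, with Benjamini-Hochberg adjustment over all kept genes. Folds without log2 are ratios of mean TPM. The script was checked on generated data for 6816 genes, where 95% of genes lower by 1 on the log2 scale and 77.5% of those lower by 0.5 were called. In that check 40 genes were changed by each amount, and 5 unchanged genes were called. Many more genes were called in the real data, so these shares do not give the sensitivity there.

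The members, lists and rules were chosen with earlier results of these data known. Named are the 10 members, up to 4 called genes of each other list by smallest p, and the 5 genes nearest to Slc7a5 and to Slc7a11; exceptions are marked. Alternatives changed the filter, pseudocount, scaling, rows, empirical Bayes, replicate term and libraries.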

Additional observations from a re-analysis of the deposited data

How the results depend on the processing

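Of the 10 transporters, Slc7a5, Slc3a2, Slc7a1, Slc1a5 and Slc1a4 stayed lower and called in every alternative that gave a value, with log2 fold changes of -1.01 to -0.75, -0.88 to -0.61, -0.58 to -0.45, -0.43 to -0.28 and -2.29 to -1.25. No log2 fold change of the 10 changed sign. Transporters called higher, 0 at first, numbered 1 with gene rows alone and 0 to 2 with 1 library left out. With gene rows alone 29.9% of all genes were called higher. With a minimum of 1 TPM 8.71% were lower and 21.8% higher, and with no filter 5.51% were lower. The counts of each list here are to be read beside these shares, or beside the counts over all genes given below. Other plasma membrane transporters, 0 lower and 0 higher at first, had 2 lower and 1 higher with a minimum of 1 TPM and with no filter. Organelle carriers, 0 lower at first, had 1 lower with a minimum of 1 TPM, no filter, medians of ratios and quantile normalization; higher ones, 1 at first, numbered 0 with a minimum of 100 TPM, quantile normalization and medians of ratios, 2 with no filter, 3 with gene rows alone and 0 to 3 with 1 library left out. Regulators lower numbered 2 with a minimum of 100 TPM, which keeps fewer genes, in place of 7; regulators higher numbered 1 with gene rows alone and with the replicate block and 0 to 1 with 1 library left out. Over all genes, 144 were lower and 446 higher with a minimum of 100 TPM, 1138 lower and 1059 higher with medians of ratios, and 989 lower with quantile normalization, in place of 622 and 1859; with 1 library left out 1037 to 2659 were higher. Higher genes made up 74.9% of calls, or 48.2% under medians of ratios and 55.8% under quantile normalization. Except where a setting keeps fewer genes or libraries, the cause was not tested.

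Same-numbered libraries were not treated as pairs, because the labels give no shared source. Their deviations from the group means correlated at -0.10, 0.11 and 0.02 across genes. Libraries of different number correlated at -0.14 to 0.10, so the check could not decide whether libraries pair. With the replicate block 4 transporters were lower and 0 higher, as without it. Among all genes 623 were lower and 1791 higher with the block. The low level of Slc7a11 and the single transcript rows limits what can be read from them.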
